A study of Python bivittatus with 8 samples.

Results

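The 200 longest of the 21368 genes counted in Burmese python left ventricle were described over a cycle of fasting and feeding. Members were chosen by the deposited gene length alone, as the 200 genes with the largest length in bases, with ties going to the smaller identifier and with no filter on expression. The rule therefore used no measured level. Lengths ran from 10285 to 99527 bases with a median of 11693. Of the members, 23 were longer than 15000 bases and 4 were longer than 20000 bases. The longest gene was 3.66 times as long as the second longest, which had 27161 bases. The first gene outside the rule had 10271 bases, 14 bases fewer than the last gene inside it.

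The study asked how the python heart, which enlarges after a large meal, returns to its fasted size. Left ventricle of wild-type Python bivittatus, captive-bred and of about 2 kg, was taken as the group named Fasted after 28 days without food, or after a fast of the same length that ended with rodents making up 25% of body mass, at 1, 4 or 6 days from that meal. The fed groups are named 1DPF, 4DPF and 6DPF, for days post-fed, and the study's design calls them growing, early regressing and later regressing hearts. RNA with poly-A tails was sequenced as 8 bulk libraries, 2 per group, each with between 33203808 and 42250755 gene counts.

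The labels give 6 snakes for sequencing and proteomics together and do not say which snake gave which of the 8 libraries. Each p-value from a fit of all 8 libraries thus reflects how much the sequenced libraries vary within their groups, and that variation may be technical. It is pooled over the 4 groups, so it is not the spread of the compared groups alone. The table names genes by number only, so no member was given a gene name or a role, and members are called here by their length. The labelled tissue could not be checked against its defining markers for the same reason. As background, the longest messenger RNAs of vertebrate heart muscle include those of giant proteins that span the sarcomere, of the large scaffolds that anchor it to the membrane, of extracellular matrix and basement membrane proteins, and of large ion channels. A long transcript also yields more sequenced fragments per molecule than a short one, so the levels of different genes were ranked per kilobase (CPM per kb). CPM itself, the usual count scaled to library size, here with edgeR's TMM factors, was used to compare 1 gene between libraries and to say how many counts stood behind a gene, which is the abundance used for matching. In bulk tissue, fewer cells of a type cannot be told apart from less of an RNA in each cell.

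Most of the long genes were expressed. Counts were sufficient to test 189 of the 200 members, among 16986 tested genes, with edgeR's filter on low counts. The remaining 11 members had between 0 and 47 counts summed over the 8 libraries and at most 11 in any 1 library, and 2 of them had no count. One untested gene was among the 10 longest, the gene of 17472 bases at a mean of 0.0841 CPM. The counts behind the median tested member came to a mean of 54.3 CPM, against 13.5 CPM for the 16797 other tested genes. As levels per kilobase the order was the opposite, with a median of 4.37 CPM per kb for the members against 5.11 for the others. With all tested genes divided by CPM into 10 bins of equal size, 96 of the 189 tested members (50.8%) lay in the 2 highest bins and 36 in the 5 lowest. The comparison with other genes was therefore made at matched abundance.

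Levels differed widely among the members. Per kilobase the highest member was a gene of 10530 bases, at a mean of 128 CPM per kb over the 8 libraries. The longest gene, of 99527 bases, came second at 89.9 CPM per kb. Genes of 12042, 12907 and 15123 bases followed at 79.1, 72.9 and 71.5 CPM per kb. The other 5 of the 10 highest, of 13587, 13930, 23468, 10376 and 13833 bases, had between 42.6 and 66.3 CPM per kb. The 5 members with the most counts were the genes of 99527, 10530, 23468, 15123 and 12042 bases, with mean levels from 952 to 8949 CPM.

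Levels varied on both sides of the rule's edge. The last member but 1, of 10285 bases, had 39.4 and 37.6 CPM in the fasted libraries and 37.3 and 35.8 CPM at 1DPF. The gene ranked 200, of the same length, had 15.9 and 22.3 CPM in the fasted libraries and 182 and 84.2 CPM at 1DPF. The first gene outside, of 10271 bases, had 1.63 and 1.22 CPM when fasted and 0.180 and 0.329 CPM at 1DPF. The next, of 10264 bases, had 24.1 and 23.6 CPM when fasted and 23.7 and 19.8 CPM at 1DPF.

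As a whole, the long genes took their largest share of the counts in the fasted ventricle. The share was 3.68% and 3.37% in the fasted libraries and 3.07% and 3.10% at 1DPF. It was 2.93% and 2.35% at 4DPF and 3.18% and 2.45% at 6DPF. Both fasted libraries lay above all 6 fed libraries, while the 4DPF and 6DPF libraries were spread more widely than the distance between their group means, which were 2.64% ± 0.414 and 2.82% ± 0.520 (SD, n = 2). The fasted mean was 3.52% ± 0.216 and the 1DPF mean 3.09% ± 0.0219. Members had been chosen with earlier results of these data known, so the share was not tested.

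The longest gene alone carried between 0.693% and 1.26% of all counts in a library. Without it the share of the other members was 2.41% and 2.43% when fasted, and 2.20% and 2.11% at 1DPF. The later groups had 2.04% and 1.64% (4DPF) and 2.41% and 1.75% (6DPF). The group means without it were 2.42%, 2.15%, 1.84% and 2.08% in the same order. Here replicate 1 of 6DPF came level with the lower fasted library to 3 digits, while the other 5 fed libraries stayed below both fasted ones.

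**Figure D1:**
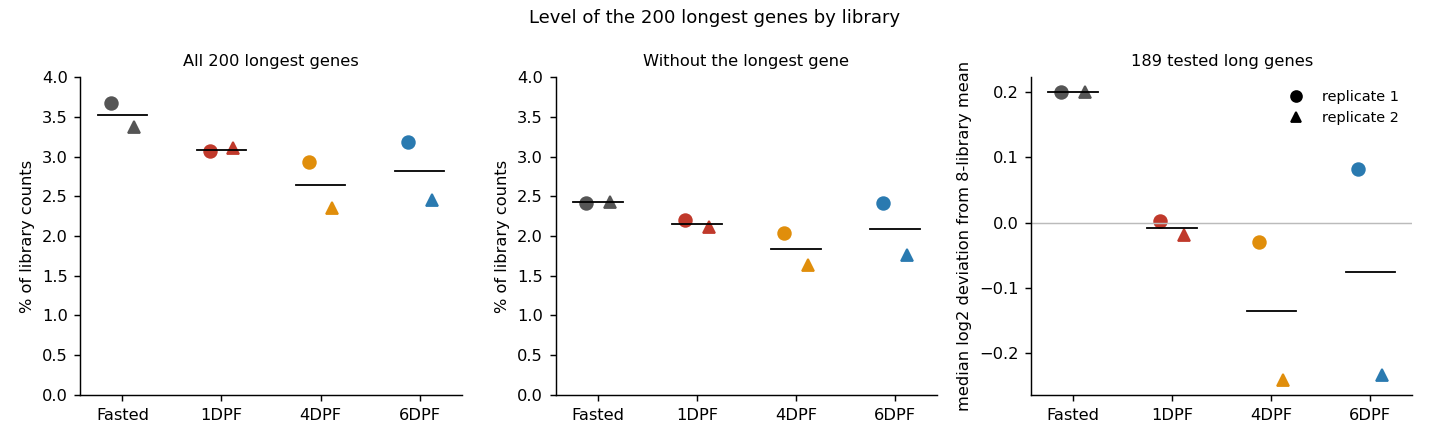
Each point is 1 library (circle replicate 1, triangle replicate 2) and each bar the mean of 2 libraries; the y axes give the share of a library's counts in percent for all 200 long genes and without the longest, and the median log2 deviation of the 189 tested long genes from their 8-library mean. Both fasted libraries lie at 0.20 on the right, and replicate 2 of 4DPF and of 6DPF lie lowest at -0.24 and -0.23.

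The typical long gene behaved like the total. For each tested gene, log2 CPM in a library was taken relative to the gene's mean over the 8 libraries. The median of the 189 members was 0.20 in both fasted libraries, 0.00 and -0.02 at 1DPF, -0.03 and -0.24 at 4DPF, and, in the 6DPF libraries, 0.08 and -0.23. The fasted libraries were alike and stood above the fed ones, whereas the 2 libraries of 4DPF differed from each other, as did those of 6DPF. Replicate 2 was below replicate 1 for 141 of the 189 members at 4DPF (74.6%, median difference -0.22) and for 157 at 6DPF (83.1%, median -0.32). Among the other tested genes these shares were 50.1% and 49.3%. The spread between replicates of the later groups was thus shared by most long genes.

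This difference between libraries followed gene length through the whole table and did not begin at the rule's limit. All genes were ranked by length and divided into 10 bands. In replicate 2 of 6DPF the median log2 deviation was -0.25 for the 50 longest genes, -0.25 for ranks 51 to 100 and -0.20 for ranks 101 to 200. It was -0.16 for the next 200 genes, -0.11 for ranks 801 to 1600, -0.03 for ranks 3201 to 6400 and 0.08 for the shortest band, of 1717 bases or fewer. Replicate 2 of 4DPF ran the same way, from -0.26 in the longest band to 0.06 in the shortest. The fasted libraries ran the opposite way, from 0.16 in the longest band to -0.01 and -0.07 in the shortest. Their highest medians, 0.30 in both, were those of ranks 51 to 100 and not of the longest band. In the 1DPF libraries the medians of all bands lay between -0.12 and 0.06. Replicate 1 of 6DPF ran the same way as the fasted libraries, from 0.12 in the longest band to -0.005 in the shortest. The 2 libraries of 6DPF thus ran in opposite directions. Replicate 1 of 4DPF had 0.02 in both the longest and the shortest band, and -0.07 at ranks 101 to 200. The counts of called members below are given also with every library's trend on length removed. That trend was fitted on all tested genes, members included, and the members were chosen by length. In every comparison, medians near 0 thus largely follow from its removal and were not a test. The same holds for the more even split of the members' calls at 1DPF and 4DPF against fasted. For the calls on single genes printed below it is stated where removing the trend ended the call. Uncalled changes that turned direction are given for some genes only.

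**Figure D2:**
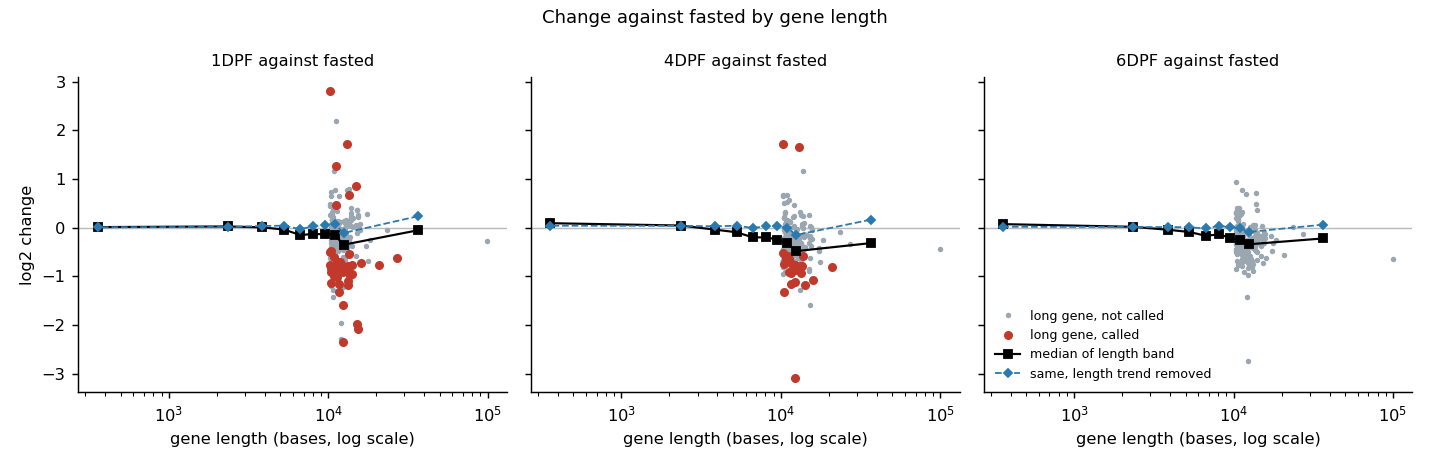
Points are the 189 tested long genes (red where called at an adjusted p under 0.05) by gene length in bases on a log axis and log2 change against fasted; black squares are medians of length bands over all tested genes and blue diamonds the same with each library's length trend removed. At 1DPF the black medians run from 0.01 in the shortest band to -0.35 for ranks 51 to 100, with -0.05 for the 50 longest genes. The blue ones run from 0.01 in the shortest band to -0.11 for ranks 51 to 100 and 0.24 for the 50 longest genes.

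One day after the meal, more long genes were lower than higher. Of the 189 tested members, 6 rose and 35 fell between fasted and 1DPF (edgeR quasi-likelihood test, Benjamini-Hochberg adjusted p under 0.05 over all tested genes). Over all 16986 tested genes, 9.58% were called higher and 9.66% lower. Among the members these shares were 3.18% and 18.5%. Among other tested genes of the same abundance, weighted to the members' 10 abundance bins, 12.5% were called higher and 11.7% lower. The median log2 change was -0.21 for the members and 0.00 for the other genes at matched abundance, and 67.7% of the members had a negative change.

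With each library's length trend removed, 20 members were called higher and 24 lower at 1DPF, and the median change of the members was 0.04. All 6 members called higher and 24 of the 35 called lower were called again in that fit. The split of calls between higher and lower thus moved from 14.6% higher to 45.5% higher. The trend had been fitted on these members too, so this move was not a test of them. When the fitted trend was a plain least-squares one, an alternative chosen after seeing the data, 19 were called higher and 22 lower. Removing a trend estimated at the longest genes rests on few points there, since 4 members exceed 20000 bases. Fewer members were called when 1 of the compared libraries was left out: leaving out Fasted replicate 1 gave 17 and Fasted replicate 2 gave 9, and leaving out 1DPF replicate 1 gave 20 and 1DPF replicate 2 gave 16. In each of these fits fewer of all tested genes were called as well, and more members were lower than higher.

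The lower members varied in length and abundance. None lay in abundance bins 1 to 4, the lowest of the 10, which hold 6, 5, 9 and 10 tested members. Among the other genes of those bins, 1.95%, 3.90%, 6.57% and 9.41% were called lower, so few calls were to be found there. The 35 genes had between 10302 and 27161 bases, and 11 of them belonged to the highest of the 10 abundance bins, which holds 51 members. Of the other genes in that bin 12.9% were called lower. Their median log2 change at 1DPF was -0.85, with a range from -2.35 to -0.48, and 10 were at least 2-fold lower. The median CPM of the 35 was 69.2 and 71.8 in the fasted libraries and 45.8 and 44.0 in the 1DPF libraries. It was 46.2 and 37.8 in those of 4DPF and 63.7 and 57.1 in those of 6DPF. The medians of both 6DPF libraries lay between those of the fasted libraries and those of the 1DPF and 4DPF libraries. The fasted and 1DPF libraries chose these genes, so a place between those groups may follow from the choice. Lying below fasted at 6DPF was not particular to the 35, since 84.7% of all 189 tested members had a negative change there.

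The fall at 1DPF with the smallest adjusted p belonged to gene 103049709, of 12304 bases, which had 42.4 and 47.5 CPM in the fasted libraries and 14.5 and 15.6 CPM at 1DPF. It had 25.6 and 23.9 CPM at 4DPF and 41.1 and 33.1 CPM at 6DPF. Levels at 1DPF lay below those of every other group, levels at 4DPF came next, and the 6DPF libraries lay between 4DPF and fasted. The log2 change at 1DPF was -1.58 ± 0.15 (SE), with an adjusted p of 0.00123 by edgeR's quasi-likelihood test, and that at 4DPF against 1DPF was 0.72 ± 0.15 (adjusted p = 0.0355). The second call was lost when any 1 of the Fasted, 1DPF or 4DPF libraries was left out (edgeR adjusted p from 0.0600 to 0.128).

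Gene 103062211, of 11627 bases, followed the same course. It had 63.5 and 59.3 CPM when fasted, 24.4 and 24.6 CPM at 1DPF, 30.8 and 33.9 CPM at 4DPF, and 53.4 and 45.1 CPM at 6DPF. The 4 groups did not overlap. Its log2 change was -1.33 ± 0.13 at 1DPF (edgeR adjusted p = 0.00134) and 1.01 ± 0.13 for 6DPF against 1DPF (adjusted p = 0.00299). The 1DPF calls of both genes held in all 16 alternative fits, the length trend included.

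A gene of 15066 bases fell from 21.7 and 22.1 CPM when fasted to 4.04 and 7.04 CPM at 1DPF. It then had 10.5 and 13.2 CPM at 4DPF and 17.4 and 20.3 CPM at 6DPF, again with no overlap between the groups. The log2 change at 1DPF was -1.98 ± 0.26 (edgeR adjusted p = 0.00373).

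Like the genes just described, other long genes that fell still lay below both fasted libraries at 6DPF. A gene of 12295 bases, among the 11 members with the most counts, had 781 and 753 CPM when fasted and 393 and 427 CPM at 1DPF. It had 381 and 324 CPM at 4DPF and 428 and 433 CPM at 6DPF. Every fed library lay far below both fasted ones, and the fed groups lay close together. Its log2 change was -0.90 ± 0.14 at 1DPF (edgeR adjusted p = 0.00635), -1.12 ± 0.14 at 4DPF (adjusted p = 0.0141) and -0.83 ± 0.14 at 6DPF, which did not pass the threshold (adjusted p = 0.0577). The 1DPF call held in all 16 alternatives, and the 4DPF call was lost when any 1 of the compared libraries was left out (adjusted p from 0.0531 to 0.127).

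The largest fall by size was that of a gene of 12292 bases. Its fasted libraries differed widely, at 209 and 95.1 CPM, and its fed libraries had 37.1 and 22.5 CPM at 1DPF, 27.2 and 8.67 CPM at 4DPF and 33.2 and 12.2 CPM at 6DPF. All 6 fed libraries were lower than both fasted ones, and replicate 2 was the lower library in every group. The log2 change was -2.35 ± 0.67 at 1DPF (edgeR adjusted p = 0.0456) and -3.08 ± 0.69 at 4DPF (adjusted p = 0.0385). The 1DPF call was lost when any 1 of the compared libraries was left out (adjusted p from 0.0858 to 0.220, the highest without Fasted replicate 1), as was the 4DPF call (0.0672 to 0.145).

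The gene with the highest level per kilobase, of 10530 bases, was among the lower ones. It had 1916 and 1870 CPM when fasted, 1110 and 1029 CPM at 1DPF, 1218 and 1031 CPM at 4DPF, and 1417 and 1202 CPM at 6DPF. No fed library reached a fasted one. At 4DPF the gene was called lower than fasted (log2 change -0.75, edgeR adjusted p = 0.0393), but not with the length trend removed (0.0855). That call was also lost when any 1 of the Fasted, 1DPF or 4DPF libraries was left out. The log2 change at 1DPF was -0.82 ± 0.17 (edgeR adjusted p = 0.0159), and the adjusted p lay between 0.0540 and 0.0838 when any 1 of the compared libraries was left out.

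Of the 10 longest genes, 3 fell at 1DPF, those of 27161, 20863 and 15967 bases. The gene of 27161 bases had 250 and 267 CPM when fasted, 162 and 173 CPM at 1DPF, 228 and 184 CPM at 4DPF, and 244 and 226 CPM at 6DPF. The 1DPF libraries were the lowest and the 6DPF libraries came near the fasted ones. Its log2 change at 1DPF was -0.63 ± 0.14 (edgeR adjusted p = 0.0226), and with the length trend removed the adjusted p was 0.253, in a range from 0.00101 to 0.328 over 16 alternatives. The call was also lost without any 1 of the compared libraries (adjusted p from 0.0732 to 0.139).

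The gene of 20863 bases had 879 and 745 CPM when fasted, 458 and 497 CPM at 1DPF, 509 and 421 CPM at 4DPF, and 605 and 497 CPM at 6DPF, with log2 changes of -0.77 ± 0.18 at 1DPF (edgeR adjusted p = 0.0223) and -0.80 ± 0.18 at 4DPF (adjusted p = 0.0362). The gene of 15967 bases had 584 and 619 CPM when fasted, 368 and 362 CPM at 1DPF, 295 and 278 CPM at 4DPF, and 441 and 341 CPM at 6DPF. Its log2 change was -0.72 ± 0.16 at 1DPF (edgeR adjusted p = 0.0191) and -1.07 ± 0.16 at 4DPF (adjusted p = 0.0169). In both genes the fasted libraries stood above all fed ones. Their 1DPF calls were lost when any 1 of the compared libraries was left out (adjusted p from 0.0706 to 0.120 and from 0.0722 to 0.114), as were their 4DPF calls (0.0929 to 0.177 and 0.0663 to 0.140). With the length trend removed the shorter gene stayed called in both comparisons and the longer in neither (adjusted p = 0.0751 at 1DPF and 0.175 at 4DPF). With the least-squares trend the 1DPF call of the shorter gene was lost as well (adjusted p = 0.0586).

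The longest gene itself, of 99527 bases, was called in no comparison by edgeR, and by DESeq2 only at 6DPF against fasted (adjusted p = 0.0369) and across the 4 groups (0.0405). It had 12879 and 9469 CPM when fasted, 8319 and 10236 CPM at 1DPF, 9007 and 7399 CPM at 4DPF, and 7262 and 7025 CPM at 6DPF. The fasted and 1DPF libraries overlapped, and the 6DPF libraries were the lowest. The log2 change was -0.27 ± 0.25 at 1DPF, -0.45 ± 0.25 at 4DPF and -0.65 ± 0.25 at 6DPF (edgeR adjusted p = 0.484, 0.277 and 0.257). All 3 turned positive with the length trend removed, at 0.34, 0.41 and 0.09 (adjusted p = 0.459, 0.404 and 0.922), so no direction was given to this gene.

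Among the other genes of the 10 longest, that of 23468 bases had 1282 and 1291 CPM when fasted, and its fed libraries ran from 961 to 1587 CPM around them. Its adjusted p across the 4 groups was 0.982 by edgeR, and its log2 change at 1DPF turned from -0.05 to 0.30 with the length trend removed (adjusted p = 0.914 and 0.279). Genes of 18357, 17656 and 17259 bases were called in no comparison by edgeR or DESeq2 either. The gene of 17373 bases had 47.7 and 50.3 CPM when fasted, 55.1 and 64.8 CPM at 1DPF, 42.6 and 31.2 CPM at 4DPF, and 39.0 and 31.0 CPM at 6DPF, and was called lower at 6DPF than at 1DPF (log2 change -0.78 ± 0.19, edgeR adjusted p = 0.0245). That call was lost without 1DPF replicate 2 (adjusted p = 0.114) and without 6DPF replicate 2 (0.112). In the fit without the length trend it was also called higher at 1DPF than when fasted (log2 change 0.59, adjusted p = 0.0156) and lower at 4DPF than at 1DPF (-0.59, adjusted p = 0.0354).

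**Figure D3:**
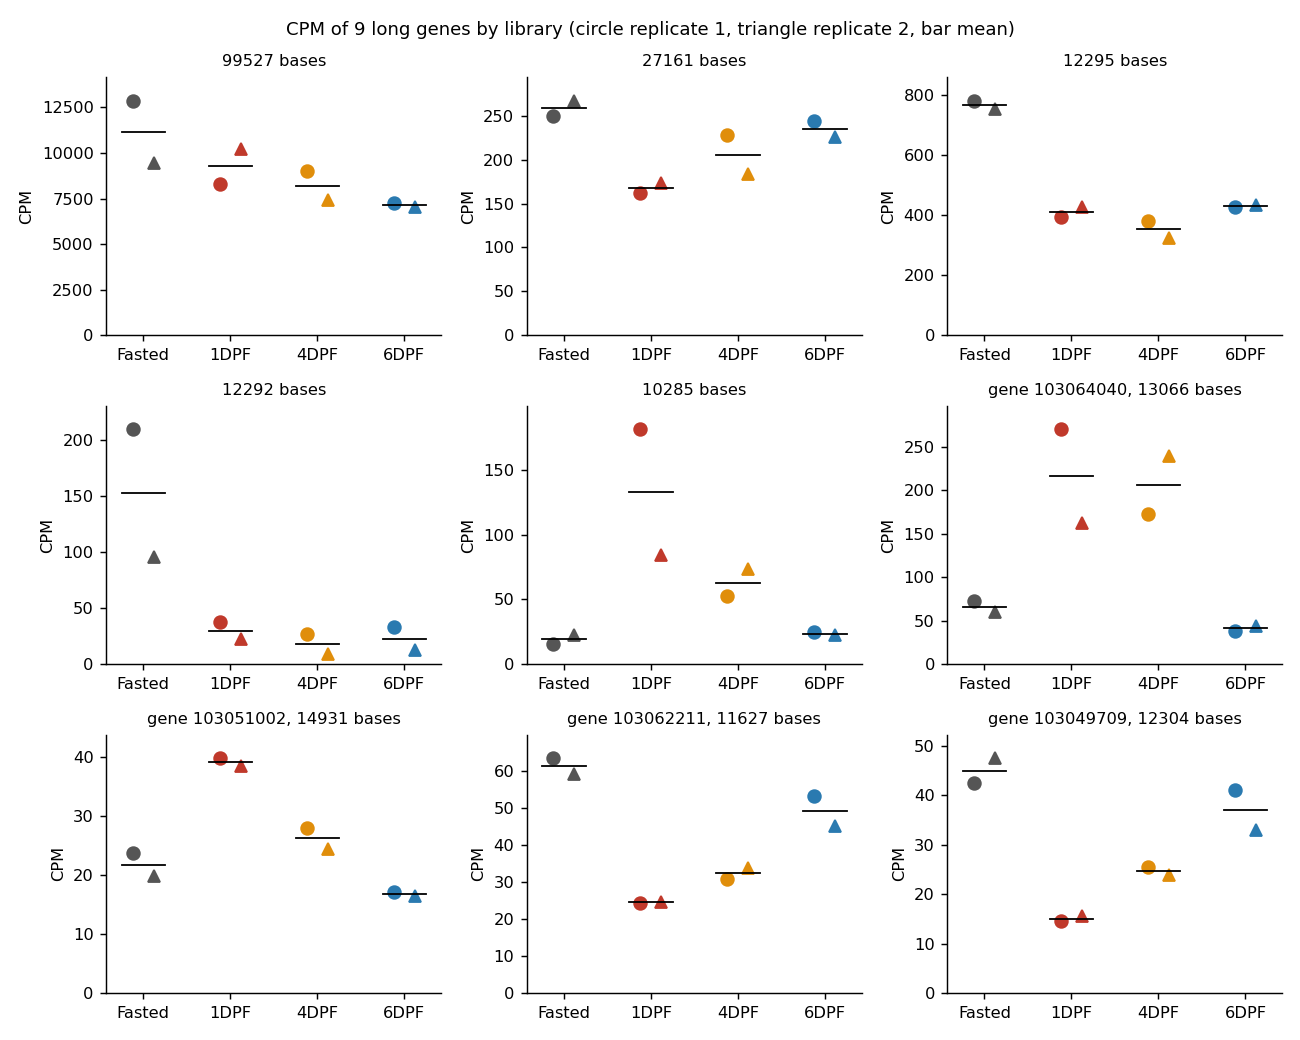
CPM (y axis, from 0) of 9 long genes in the 4 groups, with 1 point per library (circle replicate 1, triangle replicate 2) and a bar at the mean of 2 libraries. The top row holds the 2 longest genes and a gene of 12295 bases whose 6 fed libraries all lie below its fasted ones, and the panels with identifiers hold 2 genes that rose and 2 that fell at 1DPF.

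Few long genes rose at 1DPF. The 6 that did had lengths from 10285 to 14931 bases and a median log2 change of 1.06 at 1DPF, from 0.47 to 2.80.

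Gene 103064040, of 13066 bases, had 72.1 and 59.5 CPM when fasted and 270 and 162 CPM at 1DPF. It stayed high at 4DPF, with 173 and 240 CPM, and had 38.5 and 43.6 CPM at 6DPF. The 1DPF and 4DPF libraries overlapped each other and stood above all others, and the 6DPF libraries were below the fasted ones. The log2 change was 1.71 ± 0.27 at 1DPF (edgeR adjusted p = 0.00611), 1.65 ± 0.27 at 4DPF against fasted (adjusted p = 0.0193) and -2.33 ± 0.27 at 6DPF against 4DPF (adjusted p = 0.0496). The 1DPF call was lost without Fasted replicate 2 (adjusted p = 0.0620), and the 4DPF call without any 1 of the compared libraries (0.0583 to 0.157).

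Gene 103051002, of 14931 bases, had 23.7 and 19.8 CPM when fasted, 39.8 and 38.6 CPM at 1DPF, 28.0 and 24.4 CPM at 4DPF, and 17.1 and 16.4 CPM at 6DPF. It was highest at 1DPF and lowest at 6DPF with no overlap between groups. The log2 change was 0.85 ± 0.14 at 1DPF (edgeR adjusted p = 0.00695) and -1.23 ± 0.14 at 6DPF against 1DPF (adjusted p = 0.00203). The first call was lost without Fasted replicate 2 (adjusted p = 0.0612), and the second held in all 16 alternatives.

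The largest rise was that of the gene ranked 200 by length, whose fasted and 1DPF values stand above with the edge of the rule. At 4DPF it had 52.7 and 73.5 CPM and at 6DPF 24.8 and 22.3 CPM. The 1DPF libraries were the highest, the 4DPF libraries came next, and the 6DPF libraries were just above the fasted ones. The log2 change was 2.80 ± 0.37 at 1DPF (edgeR adjusted p = 0.00364) and 1.73 ± 0.36 at 4DPF (adjusted p = 0.0320). The 1DPF call held in all 16 alternatives, and the 4DPF call was lost without any 1 of the compared libraries (adjusted p from 0.0741 to 0.160).

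The other 3 that rose had 11180, 13422 and 11136 bases, with log2 changes at 1DPF of 1.28 ± 0.33, 0.68 ± 0.20 and 0.47 ± 0.11 (edgeR adjusted p = 0.0340, 0.0499 and 0.0259). In each of the 3 both 1DPF libraries were above both fasted ones. None of the 3 calls held without Fasted replicate 1, Fasted replicate 2 or 1DPF replicate 2 (adjusted p from 0.0826 to 0.186, from 0.167 to 0.222 and from 0.0859 to 0.134). That of the gene of 13422 bases was lost also without either 4DPF library (0.0551 and 0.0552) and that of 11136 bases without 1DPF replicate 1 (0.0981). The gene of 11136 bases had the tightest replicates, with 175 and 168 CPM when fasted, 241 and 234 CPM at 1DPF, 153 and 155 CPM at 4DPF and 145 CPM in both libraries at 6DPF.

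On day 4 after the meal the long genes were still mostly below the fasted level. Against fasted, 2 members rose and 23 fell (edgeR, adjusted p under 0.05), where 4.54% of all tested genes were called higher and 4.02% lower. At matched abundance 1.06% of the members against 5.75% of other genes were called higher, and 12.2% against 5.62% were called lower. The median log2 change was -0.36 for the members and -0.01 for the matched other genes. With each library's length trend removed, 7 were called higher and 9 lower, the median was 0.00, and the share of calls that were higher moved from 8.0% to 43.8%. All 9 were among the 23.

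These calls rested on all of the libraries compared. When 1 of them was left out, few or no members were called, and far fewer of all tested genes as well. The loss of calls was thus not particular to the long genes. The members' median log2 change stayed negative, at -0.33 and -0.27 without Fasted replicate 1 and 2. It was -0.44 and -0.25 without 4DPF replicate 1 and 2. The DESeq2 fit on all 8 libraries called 3 higher and 41 lower (23.3% of the members). Over all tested genes it called 1460 higher and 1236 lower (15.9%). The 2 members that rose were the genes of 13066 bases and of rank 200 above.

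Between 1DPF and 4DPF few long genes changed, with 2 higher and 3 lower against 3.96% and 2.2% of all tested genes. The higher ones were the gene of 12304 bases and one of 13790 bases, outside the rule for genes described singly and named after its values were seen. The latter had 3.81 and 2.35 CPM when fasted, 2.60 and 1.67 CPM at 1DPF, 7.73 and 6.15 CPM at 4DPF and 5.86 and 4.19 CPM at 6DPF, with both later groups above the earlier ones. The lower ones were the genes of 14931, 10286 and 11136 bases. The gene of 10286 bases had 36.1 and 27.1 CPM when fasted, 49.1 and 39.6 CPM at 1DPF, 17.4 and 22.04 CPM at 4DPF and 23.7 and 21.1 CPM at 6DPF, so both later groups lay below 1DPF and below fasted. Its log2 change at 4DPF against 1DPF was -1.17 ± 0.20 (edgeR adjusted p = 0.0252). When any 1 of the fasted, 1DPF or 4DPF libraries was left out, few or no members were called in this comparison by edgeR. Fewer of all tested genes were called in those fits as well. Over all fits without 1 library the members' median log2 change ran from -0.24 to -0.05. DESeq2 on all 8 libraries called 5 higher and 12 lower (9.0% of the members, against 13.3% of all tested genes). With the length trend removed edgeR called 2 higher and 4 lower, among them both of the 2 and 1 of the 3, the gene of 10286 bases, while those of 14931 and 11136 bases were no longer called (adjusted p = 0.0972 and 0.0592). The members' median log2 change in the edgeR fit was -0.16, against -0.03 for other genes of matched abundance.

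Between 4DPF and 6DPF edgeR called a single long gene, gene 103064040, which fell, and DESeq2 called 4 higher and 3 lower. Over all tested genes edgeR called 0.053% higher and 0.0353% lower. DESeq2 called 3.70% of the members and 4.43% of all tested genes. The members' median log2 change was 0.08, and it was -0.04 without 4DPF replicate 2 and -0.09 without 6DPF replicate 1, so its sign depended on 1 library. The 1 call by edgeR was lost when either fasted, either 4DPF or either 6DPF library was left out, and with the length trend removed. In the edgeR fit with all libraries 21 members had an unadjusted p under 0.05. The share of all tested genes at that limit was not counted, so no more is read from this number.

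The long genes that fell at 1DPF had nonetheless mostly higher values at 6DPF than at 4DPF, a contrast that shares no library with the one that chose them. The difference was positive in 32 of the 35, with a median log2 change of 0.34. Of all 189 tested long genes 62.4% were positive, against 50.0% of all other tested genes. Among the 1606 other tested genes called lower at 1DPF, 90.0% were positive, with a median of 0.34, and the difference between these and the long genes was not tested. With the length trend removed 31 of the 35 were positive, with a median of 0.26 against 0.32 for the others. Leaving out 1 library gave between 27 and 34 positive. The fewest were without 6DPF replicate 1, where the median was 0.15 against 0.34 for the others. The 6 that rose at 1DPF were all negative at 6DPF against 4DPF, as were 91.9% of the 1621 other genes called higher.

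On day 6 after the meal no long gene was called different from fasted. The edgeR test gave 0 higher and 0 lower, where 0.365% of all tested genes were called higher and 0.0471% lower. At an unadjusted p under 0.05 there were 46 members, 1 higher and 45 lower. All tested genes were not counted at that limit, so this number has no background beside it. DESeq2 called 14 members (7.41%), all lower, against 4.76% of all tested genes, of which 506 were higher and 302 lower. The median log2 change was -0.28 for the members and -0.02 for other genes of matched abundance, and 84.7% of the members were negative against 52.3%. Without 6DPF replicate 1 the members' median was -0.43, and without 6DPF replicate 2 it was -0.11. With the length trend removed it was -0.01, and again no member was called, with 24 at an unadjusted p under 0.05, likewise without a background. The lack of calls does not show that the 6DPF ventricle had returned to fasted levels.

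Set against 1DPF, the 6DPF libraries had 15 long genes higher and 16 lower (edgeR, adjusted p under 0.05), against 11.3% and 10.4% of all tested genes. At matched abundance 7.94% of members and 12.5% of other genes were called higher, and 8.47% and 13.5% were called lower. The median was -0.08, and it was 0.06 without 6DPF replicate 2. The even split rested on both 6DPF libraries, since leaving out 6DPF replicate 1 gave 7 higher and 16 lower, and leaving out replicate 2 of that group gave 15 higher and 7 lower. Without either 1DPF library fewer members were called, and fewer of all tested genes as well. The 1DPF libraries enter this comparison and that of 1DPF with fasted, so the calls of the pair are not independent. With the length trend removed 22 were called higher and 23 lower, of which 14 in each direction were shared with the fit that keeps the trend.

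**Figure D4:**
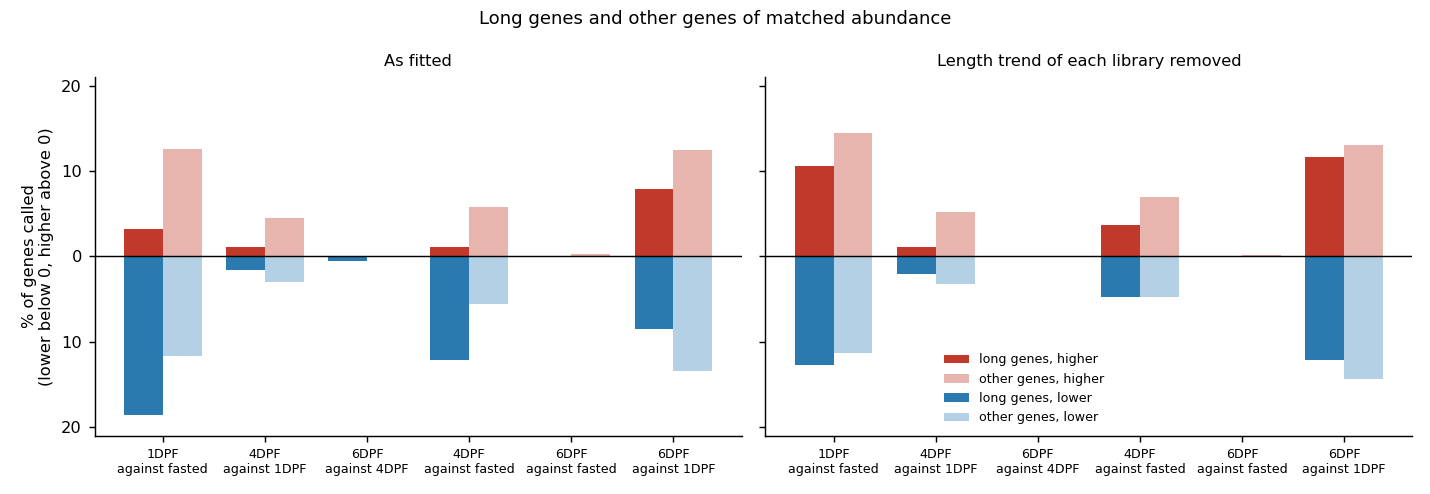
Bars give the percentage of tested genes called higher (above 0) or lower (below 0) in each comparison, for the 189 long genes (dark) and for other genes weighted to the same 10 abundance bins (pale), as fitted on the left and with each library's length trend removed on the right. On the left 18.5% of long genes were lower at 1DPF against 11.7% of the others, and on the right the same shares were 12.7% and 11.3%.

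Over the whole course, 40 long genes differed across the 4 groups (21.2% of those tested), against 21.3% of all tested genes and 26.1% of other genes at matched abundance. With matching on CPM per kb the last share was 20.75%. The number that changed was thus near the background. Leaving out any 1 of the fasted, 1DPF or 4DPF libraries gave fewer calls among the members, and among all tested genes as well. DESeq2 called 71 (37.6%), against 32.6% of all tested genes. The fit without the length trend called 40, of which 29 were shared with the fit that keeps it. Of the 40, 28 had their highest group mean in the fasted ventricle, where 26.7% of the 3625 tested genes called across the 4 groups had theirs. For 10 the highest mean was at 1DPF, for 1 at 4DPF and for 1 at 6DPF. The lowest mean was at 1DPF in 18, at 4DPF in 13, at 6DPF in 8 and in the fasted group in 1. Among the 3625 these shares were 42.1%, 10.6%, 21.1% and 26.2% in the same order. The shares of the 40 at 1DPF and 6DPF were thus near this background. A lowest mean at 4DPF was commoner among the 40, and a lowest mean when fasted was rarer, which was not tested. The commonest course was highest when fasted and lowest at 1DPF, in 16 genes, followed by highest when fasted and lowest at 4DPF, in 11. Of the 3625 genes, 652 and 272 followed these courses. With the trend divided out of the CPM, an alternative chosen after seeing the data, the fasted mean was the highest in 22 of these 40 genes and the 1DPF mean in 10. Of the 40 genes called with the trend removed, the fasted mean was the highest in 15 (37.5%) and the 1DPF mean in 16 (40.0%). Among all 3738 tested genes called in that fit these shares were 22.4% and 39.9%.

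**Figure D5:**
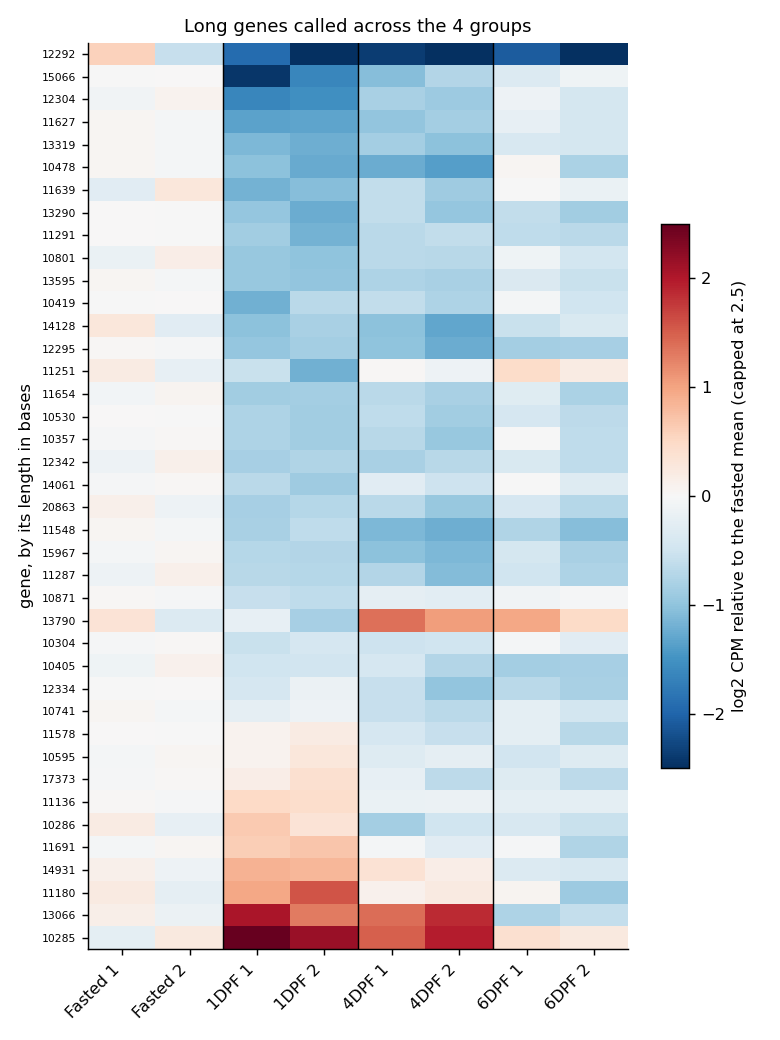
Each row is 1 of the 40 long genes called across the 4 groups, named by its length in bases, and each column a library; colour gives log2 CPM relative to the mean of the 2 fasted libraries, capped at 2.5. The upper rows are blue in the 1DPF and 4DPF columns and paler at 6DPF, and the lowest rows, such as those of 13066 and 10285 bases, are red at 1DPF and 4DPF.

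Counting values alone, without a test, both fasted libraries lay above all 6 fed libraries in 51 of the 189 tested members (27.0%), against 11.2% of all tested genes and 12.5% of other genes at matched abundance. The reverse, with both fasted libraries below all 6 fed ones, was found in 1 member (0.529%), against 8.6% of all tested genes and 9.01% at matched abundance. With each library's length trend divided out of the CPM, an alternative chosen after seeing the data, the first pattern was found in 21 members (11.1%), against 9.55% of all tested genes and 10.3% of other genes at matched abundance. The second was then found in 16 (8.47%), against 9.78% of all tested genes.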

How the data were processed

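Per the file headers, the values used here are unnormalized gene counts that the authors deposited for 8 libraries, beside a length for every gene. HISAT2 2.1.0, featureCounts, Trimmomatic 0.36, DESeq2 1.36.0 and SAMtools 1.8 are named, per the submitters' processing notes. The settings, genome build, annotation, definition of length and strand setting were not given in the sources used here, so counts of overlapping or antisense genes and near-identical copies are uncertain.

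The 200 longest genes and the lists were chosen with earlier results of these data known. The 11 gene lists and the cell type markers could not be matched to the numeric identifiers and were not analysed here. Genes passing edgeR's filterByExpr (minimum count 10, minimum total 15) were fitted over all 8 libraries with TMM scaling and group as the sole term (edgeR 4.0.16 quasi-likelihood, two-sided, Benjamini-Hochberg over all tested genes, threshold 0.05). Log2 CPM used a prior count of 2. SEs came from the log2 change and the F statistic. DESeq2 1.42.0 was an alternative. Other genes were matched on mean CPM in 10 bins, weighted to the members' bins. The length trend of each library was a loess curve of log2 CPM deviation on log length (span 0.5, degree 1), entered as offsets. Its robust fitting and centring were settled after a first output, made with a faulty offset, had been seen, and a plain least-squares curve was added as an alternative. Counting error of a library's share is small (95% Wilson intervals at most 0.0128 percentage points wide) and covers no other error.

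Genes to describe singly were drawn from 4 lists, and not all genes of the last list are described. The lists were the 10 longest members, the 10 highest per kilobase, the 5 with the most counts, and called members of at least 5 CPM. The last held up to 5 genes with the largest change per direction and comparison. Identifiers were printed for the 2 that rose and the 2 that fell at 1DPF with the smallest p across the 4 groups. The scripts were tested on simulated data.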

Additional observations from a re-analysis of the deposited data

How the results depend on the processing

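No setting that was run turned the direction of a call made on a long gene described singly. Uncalled changes turned with the length trend removed in several genes, among them those of 99527, 27161, 23468, 18357 and 17259 bases. The 55 calls on the genes chosen for single description, including those not described, were recomputed under up to 16 alternatives each. Of the 880 recomputed values 207 no longer passed the threshold. Scaling with RLE factors gave the same numbers of calls as TMM in all 7 tests.

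Counts of called members moved by over 1.5 times in these fits. DESeq2 called 17 at 4DPF against 1DPF, 7 at 6DPF against 4DPF, 44 at 4DPF against fasted, 14 at 6DPF against fasted and 71 across the 4 groups. In each of these tests it called more of all tested genes than edgeR as well. Fits of the 2 compared groups alone called 0 at 4DPF against 1DPF, 0 at 6DPF against 4DPF and 15 at 6DPF against 1DPF. Over all tested genes these fits called 0, 0 and 2193, so the loss was not particular to the long genes. Removing the length trend left 0 at 6DPF against 4DPF and 16 at 4DPF against fasted, and the least-squares trend, chosen after seeing the data, left 0 and 13. Over all tested genes the first trend gave 18 and 1493 calls and the second 13 and 1285. With the trend divided out of the CPM, both fasted libraries lay above all fed ones in 21 members and below them in 16. Without a filter 1 member was called at 6DPF against fasted (0.505%, against 0.681% of all genes in that fit). The cause of these moves was not tested.

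Leaving out 1 library at a time gave 9 to 43 calls at 1DPF against fasted, 0 to 6 at 4DPF against 1DPF, 0 to 1 at 6DPF against 4DPF, 0 to 30 at 4DPF against fasted, 0 to 0 at 6DPF against fasted, 13 to 33 at 6DPF against 1DPF and 14 to 41 across the 4 groups. The lone library of a group was then assumed to vary like the other groups. Across the 4 groups there were 14 without either fasted library, 20 without 1DPF replicate 1, 16 without 1DPF replicate 2 and 26 without either 4DPF library.

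The replicate block called 0 at 6DPF against 4DPF and 1 at 6DPF against fasted, and 38, 5, 20, 28 and 34 in the other tests. Over all tested genes it called 0 and 104, and 2926, 670, 1054, 3361 and 2808 in the other tests. The groups share replicate numbers, and the library codes of replicate 1 in all groups precede those of replicate 2. What that order reflects is not stated. The differences between replicates correlated from -0.336 to 0.433 between groups over all tested genes, so the numbers were not taken as pairs. Among the tested members alone the correlations ran from -0.33 (1DPF with 4DPF) to 0.593 (4DPF with 6DPF).

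Without the longest gene the mean share of counts was 2.42%, 2.15%, 1.84% and 2.08% in the order of the groups. Matching on CPM per kb or in 20 bins moved the gap in median change between long and other genes by less than the spread of library medians within groups (SD 0.135 on the log2 scale). The share of matched other genes called at 1DPF against fasted was 24.2% with CPM and 18.7% with CPM per kb, on either side of the members' 21.7%. With 2 libraries a group, small changes of single genes were not detectable.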
